A study of Mus musculus with 8 samples.

Results

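The sirtuins are the 7 mouse genes Sirt1 to Sirt7, taken by gene symbol from 2 deposited tables of mRNA levels. All 7 were listed in both tables, among 52139 genes that the tables share, and each symbol matched 1 row per table. The cells are labelled C2C12, a wild type, immortalised mouse myoblast line, and the study asked how gene expression in them responds to 2 ginseng products: a Ginseng Berries Concentrate (GBC) and the saponin ginsenoside Re. The first table, called the GBC pair here, holds 1 library of cells given DMSO, a solvent used as the control, and 1 library of cells given GBC. The other, called the Re table, holds 3 DMSO libraries and 3 libraries of cells given Re. The labels state neither dose nor duration, and nothing in them says that the replicates came from separate cultures, so spreads between them may be technical. The family was chosen by its levels and its treated minus DMSO differences in both tables, so these are given as descriptions, without a test.

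Sirtuins are enzymes that use NAD+ to remove acetyl or other acyl groups from lysines of proteins, releasing nicotinamide, so their activity is tied to the supply of NAD+. Sirt1, Sirt6 and Sirt7 work mainly in the nucleus on histones, transcription factors and ribosomal RNA genes, and Sirt2 works mainly in the cytosol, where tubulin is a substrate. Sirt3, Sirt4 and Sirt5 are imported into mitochondria: Sirt3 is the main mitochondrial deacetylase, Sirt4 acts on enzymes of amino acid metabolism and Sirt5 removes succinyl, malonyl and glutaryl groups. In skeletal muscle the family is known for links between nutrient state, mitochondrial oxidation and the differentiation of myoblasts.

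The stretches before the annotated start sites are shown for the genes whose mRNA the results turn on: Sirt3 and Sirt4, whose Re values lay above the DMSO values, and Sirt1, whose level differed most between the tables. They come from RefSeq on GRCm38.p6, within the 250 bases before a start, and exclude bases that GENCODE M21 annotates as untranslated region. Capitals mark GGGCGG (the GC box, either strand) and CACGTG (an E-box).
Sirt1, chr10:63339051-63339285, minus strand: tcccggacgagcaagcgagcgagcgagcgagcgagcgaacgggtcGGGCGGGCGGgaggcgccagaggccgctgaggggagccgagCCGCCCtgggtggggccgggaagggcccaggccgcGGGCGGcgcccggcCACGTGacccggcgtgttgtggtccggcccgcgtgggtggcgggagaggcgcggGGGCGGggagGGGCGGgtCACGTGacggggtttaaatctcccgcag
Sirt3, chr7:140881870-140881967, minus strand, before the second start site of the table: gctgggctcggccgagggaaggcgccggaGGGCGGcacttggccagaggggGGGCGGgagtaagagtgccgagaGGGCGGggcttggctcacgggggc
Sirt4, chr5:115484298-115484331, minus strand: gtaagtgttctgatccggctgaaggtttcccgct

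The 7 genes have 9 windows of 250 bases before a start, and Sirt3 and Sirt6 have more than 1 start. Motifs and GC content were read over all 250 bases. Unlike the stretches shown, these include annotated untranslated region. That region took up 216 bases for Sirt4, and 162 and 152 at the first and second start of Sirt3. It took up 231 for the first start of Sirt6, 156 for Sirt2, 148 for Sirt7 and 15 to 39 in the other windows. A GC box was found in 6 of the 9 windows, with 6 matches for Sirt1, of which some overlap, and 3 at the second start of Sirt3. GGGCGG on either strand was found in 32.7% of the 32851 windows of the table. The E-box CACGTG was found in 1 window, that of Sirt1, with 2 matches, and in 6.02% of all windows. CCAAT on either strand was found in 3 windows, those of Sirt2, Sirt5 and the second start of Sirt3, and in 33.8% of all windows. The palindromic core of the NRF1 site was found before the first start of Sirt6 and in 0.782% of all windows. TGACGT, on either strand in 6.47% of all windows, and TATAAA, in 12.4%, were found in 0 of the 9. The window at the first start of Sirt3 and that of Sirt4 held none of these motifs. GC content was 79.2% for Sirt1, higher than in 98.4% of windows, 62.4% and 64.4% at the first and second start of Sirt3 and 53.2% for Sirt4, against a median of 52.4%. These matches describe letters only.

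Levels are TPM, a transcript abundance relative to the whole library, which divide reads by gene length, so that levels of different genes can be compared. The read depth cannot be had from TPM and is unknown. The listed TPM summed to 403442 and 479938 in the GBC pair and ran from 642180 up to 743269 for Re and its controls, with mitochondrially encoded genes holding 13.6% to 19.2% of the sum. To set aside such differences of scale, values were also rescaled by the median of ratios, which gives the typical gene the same level in every library of a table. Of 8 myoblast markers, 7 were at 1 TPM or more in all 6 libraries of the Re table, with Myod1, the master regulator of muscle fate, at 9.95 to 13.6 TPM, and Pax7 was under 1 TPM. In the GBC pair 7 of the 8 were under 1 TPM in both libraries, and Myod1, Myf5, Cdh15 and Pax7 were listed at 0. The summed level of these markers was 1.99 and 1.67 TPM in the pair and 222.7 to 250.4 TPM in the Re table. Of 6 fibroblast or mesenchymal markers, 2 in the pair and 3 in the Re table were under 1 TPM in every library, and their summed level was 60.5 and 118.0 TPM in the pair and 194.7 to 288.1 TPM in the Re table. Among them Thy1 was at 23.8 and 22.1 TPM in the pair and at most 0.08 TPM in the Re table. The pair is therefore named by its treatments below, and the part of these markers in any difference between the tables was not tested. In bulk RNA, fewer cells that express a gene and less RNA per cell cannot be told apart.

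**Figure D1:**
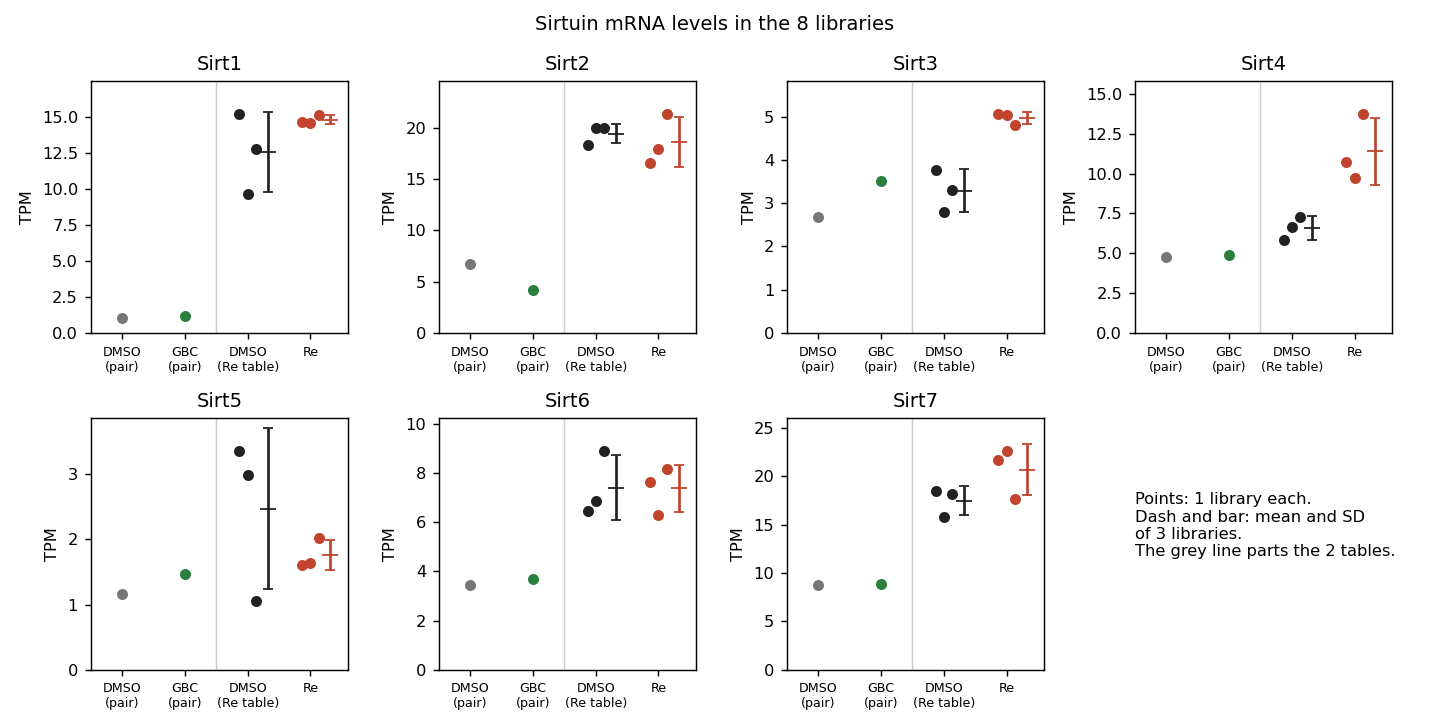
TPM of each sirtuin in each library, by group, with the 2 tables parted by a grey line; points are libraries, and the dash and bar give mean and SD of 3 libraries. In Sirt3 and Sirt4 the 3 Re points lie above the 3 DMSO points of the same table, and Sirt1 is at 1.04 and 1.19 TPM in the GBC pair against 9.63 TPM or more in the Re table.

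In the DMSO libraries of the Re table the sirtuins spanned a range from Sirt2 down to Sirt5. Sirt2 was at 19.4 ± 0.935 TPM and Sirt7 at 17.5 ± 1.52 TPM (SD, n = 3), and their ranges of 18.3 to 19.9 and 15.7 to 18.5 TPM overlapped. Sirt1 followed at 12.5 ± 2.78 TPM, with a highest value of 15.2 TPM, below the lowest of Sirt7. Sirt6 at 7.41 ± 1.33 TPM and Sirt4 at 6.59 ± 0.732 TPM overlapped, as did Sirt3 at 3.29 ± 0.490 TPM and Sirt5 at 2.47 ± 1.23 TPM. The family stayed in the lower and middle part of the expressed genes: Sirt2 stood above 57.05% to 64.0% of the 11967 genes that averaged 1 TPM or more, and Sirt5 above 3.33% to 15.9%. Sirt5 was the least even member, with the DMSO libraries at 3.36, 2.98 and 1.06 TPM. The third DMSO library alone set its low end, and it was the highest DMSO library for Sirt4 and Sirt6.

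In the Re libraries the order by means was Sirt7, Sirt2, Sirt1, Sirt4, Sirt6, Sirt3 and Sirt5. The ranges of Sirt7, 17.7 to 22.6 TPM, and Sirt2, 16.5 to 21.3 TPM, overlapped. Sirt4 and Sirt6 stood in the opposite order to the DMSO libraries of the same table. The ratio of Sirt4 to Sirt6, which does not depend on the scale of a library, was 0.904, 0.971 and 0.817 in the DMSO libraries. In the Re libraries it was 1.40, 1.54 and 1.68, so the 2 groups did not overlap. In the GBC pair it was 1.39 in DMSO and 1.33 in GBC, so Sirt4 stood above Sirt6 there without Re. The ratio of Sirt4 to Sirt3 overlapped, at 1.55 to 2.38 in the DMSO and 1.93 to 2.86 in the Re libraries. How often ratios of other gene pairs part the groups was not computed.

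Across all genes, Re and DMSO were compared by limma, a linear model with moderated variances, on log2(TPM + 1). It called 0 of 11967 genes, 0%, at an adjusted p under 0.05, while 745 genes, 6.23%, had an unadjusted p under 0.05. Limma without a variance trend and with robust variances called 0 genes too. The sirtuins had a median difference of 0.23, with 5 of 7 higher in Re, where all genes had a median of 0.11 and 77.5% were higher. After rescaling the median was 0.12, with 4 of 7 higher, against a median of all genes at 0.00 and 49.8% higher. In 2 of the 7, Sirt3 and Sirt4, every Re value lay above every DMSO value. That separation held for 13.7% of all genes as deposited, and after rescaling for the same 2 sirtuins and 5.21% of all genes. In none of the 7 did every Re value lie below every DMSO value, which held for 1.27% of genes as deposited and 4.96% after rescaling. Since the family was chosen with this contrast in view, nothing is read from these counts.

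Among the mitochondrial members, Sirt4 had the largest difference. It was at 5.83, 6.65 and 7.29 TPM in the DMSO libraries and at 10.7, 9.72 and 13.7 TPM in the Re libraries. The lowest Re library was above the highest DMSO library, and the Re libraries were further apart among themselves than the DMSO libraries. The ratio of the group means was 1.73, and the difference was 0.70 with a standard error of 0.15 on the log2(TPM + 1) scale. It was 0.60 after rescaling, with DMSO at 5.70, 7.47 and 7.47 TPM and Re at 10.6, 9.44 and 12.7 TPM. Of all genes tested, 98.8% had a lower difference, and 98.7% after rescaling. Over the 12 alternative scalings, pseudocounts and left-out libraries the difference ran from 0.57, without Re replicate 3, to 0.80.

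Sirt3, the main mitochondrial deacetylase, was at 3.77, 2.79 and 3.30 TPM in DMSO and at 5.06, 5.03 and 4.80 TPM in Re. The Re libraries lay close together and above all DMSO libraries. The ratio of means was 1.51 and the difference 0.48 with a standard error of 0.14, or 0.39 after rescaling. It ran from 0.39 to 0.59 over the same 12 alternatives, and 97.4% of genes had a lower difference.

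Sirt5, the desuccinylase, went the other way from the other mitochondrial members by its means, but its groups overlapped. It was at 1.61, 1.63 and 2.02 TPM in Re, inside the DMSO range of 1.06 to 3.36 TPM. The difference was -0.26 with a standard error of 0.29, about as large as the difference itself. It was -0.60 without DMSO replicate 3 and -0.06 without DMSO replicate 1, so single control libraries set its size.

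The nuclear members showed smaller differences, and in each the groups overlapped. Sirt1, which deacetylates p53, FoxO factors and PGC-1alpha, was at 15.2, 9.63 and 12.8 TPM in DMSO and at 14.6, 14.6 and 15.1 TPM in Re. The highest value was that of a DMSO library, and the Re libraries were the more even. The difference was 0.24 with a standard error of 0.16, or 0.14 after rescaling, and it was 0.08 without DMSO replicate 2, the library with the lowest value, and 0.38 without DMSO replicate 1, the highest. Sirt7, which acts at ribosomal RNA genes, was at 18.5, 15.7 and 18.2 TPM in DMSO and at 21.7, 22.6 and 17.7 TPM in Re. As deposited, the third Re library lay within the DMSO range and the others above it. After rescaling, the third was at 16.4 TPM, below the DMSO range of 17.7 to 18.6 TPM, and the others still lay above it. The difference was 0.23 with a standard error of 0.12, or 0.12 after rescaling. Sirt6, a histone deacetylase of chromatin repair, was at 6.45, 6.85 and 8.92 TPM in DMSO and at 7.66, 6.31 and 8.17 TPM in Re, and the means of 7.41 and 7.38 TPM differed by less than either SD. Its difference was 0.00 as deposited and -0.10 after rescaling, with a standard error of 0.15.

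Sirt2, the cytosolic tubulin deacetylase, was at 18.3, 19.9 and 19.9 TPM in DMSO and at 16.5, 17.9 and 21.3 TPM in Re. The Re libraries held both the lowest and the highest value. The difference was -0.06 with a standard error of 0.12, and -0.17 after rescaling.

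**Figure D2:**
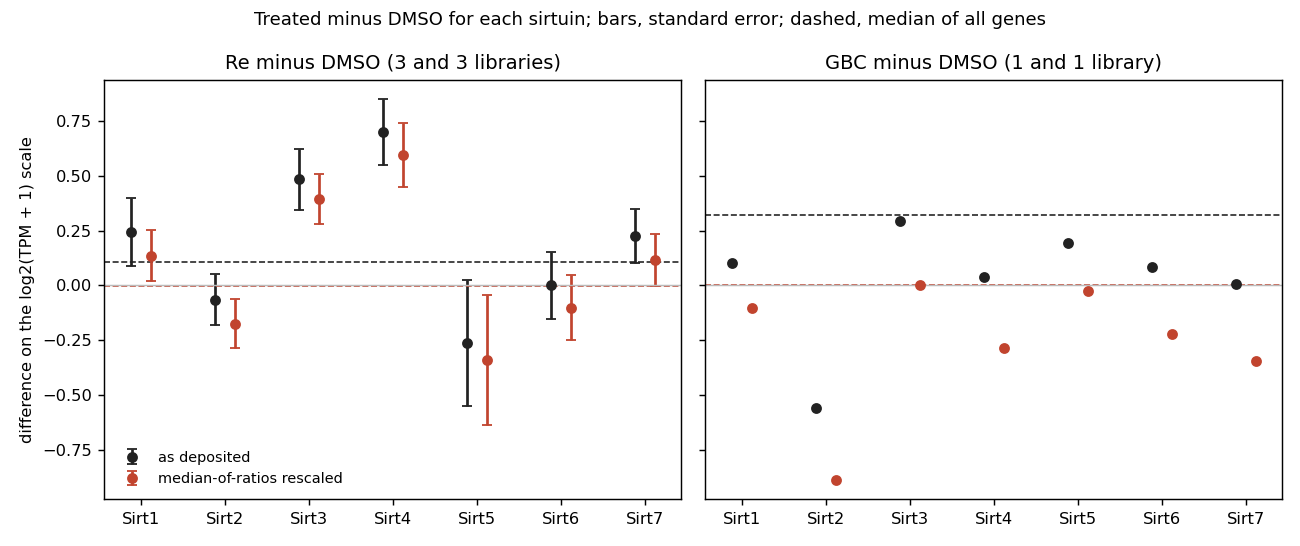
Treated minus DMSO difference of each sirtuin on the log2(TPM + 1) scale, as deposited (black) and after median-of-ratios rescaling (red), for Re on the left with the standard error of the limma fit and for the GBC pair on the right with no error, since it has 1 library per group. Dashed lines mark the median of all genes; Sirt4 stands at 0.70 and Sirt3 at 0.48 for Re as deposited, and Sirt2 at -0.56 for GBC.

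The make-up of the sirtuin mRNA pool was compared as each member's share of the summed sirtuin TPM within a library, a measure that any rescaling of a whole library leaves as it is. The sum averaged 69.1 ± 3.97 TPM in the DMSO and 79.5 ± 2.90 TPM in the Re libraries (SD, n = 3). The mitochondrial members together held 17.9% ± 1.48 in DMSO and 22.7% ± 1.91 in Re, with ranges of 16.3% to 19.2% and 21.1% to 24.8% that did not overlap. This rests on the Sirt3 and Sirt4 values given above and is no separate result. In the GBC pair the mitochondrial members held 30.1% in DMSO and 35.5% in GBC, more than in any Re library. Sirt4 alone held 8.16% to 10.3% in DMSO and 12.5% to 16.6% in Re, and Sirt3 4.32% to 5.28% and 5.79% to 6.50%. The cytosolic Sirt2 held 28.1% ± 2.62 and 23.3% ± 2.27, with ranges of 25.6% to 30.9% and 21.2% to 25.7% that overlapped slightly. The nuclear members held 53.97% ± 3.54 and 53.9% ± 3.89. A larger share of some members lowers that of others, so these shares are not independent of each other.

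**Figure D3:**
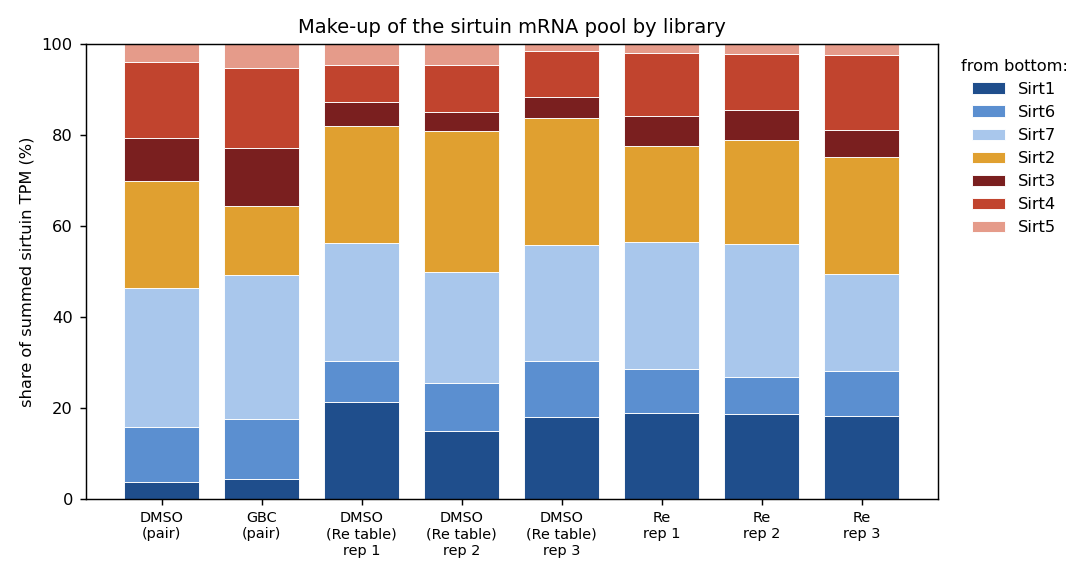
Share of the summed sirtuin TPM held by each member in each library, stacked from the nuclear members (blues) through Sirt2 (yellow) to the mitochondrial members (reds). The red part is 16.3% to 19.2% in the DMSO and 21.1% to 24.8% in the Re libraries of the Re table. In the GBC pair it is 30.1% in DMSO and 35.5% in GBC, and Sirt1 holds 3.64% and 4.28%.

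In the GBC pair Sirt2 was the only sirtuin lower in the GBC library as deposited, with 6.70 TPM in its control and 4.23 TPM after GBC, a ratio of 0.631. The difference was -0.56, and 0.619% of the 10989 genes that averaged 1 TPM or more had a lower one. After rescaling it was -0.88. With 1 library per group there is no replicate check. None of the 7 sirtuins reached a difference of 1 either way, which 4.72% of genes did as deposited and 1.92% after rescaling. At a mean of 5 TPM or more, where 2 sirtuins remain, Sirt2 and Sirt7, the shares were 5.21% and 1.87%.

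The other sirtuins were higher in GBC by 0.01 to 0.29 as deposited, while after rescaling they ran from -0.34 to 0.00. Sirt3, at 2.67 and 3.50 TPM, was 0.29 higher in GBC on the log2(TPM + 1) scale, and Sirt5, at 1.16 and 1.47 TPM, 0.19 higher. Sirt1 was at 1.04 and 1.19 TPM, Sirt4 at 4.77 and 4.92 TPM, Sirt6 at 3.43 and 3.69 TPM and Sirt7 at 8.79 and 8.83 TPM. The median over the family was 0.08, with 6 of 7 higher, while all genes had a median of 0.32 and 88.8% were higher. After rescaling the family's median was -0.22, with 1 of 7 higher, against a median of all genes at 0.00. The direction of Sirt1, Sirt4, Sirt5, Sirt6 and Sirt7 thus turned with the scale. Sirt4, which had the largest difference for Re, was at 0.04 as deposited and -0.29 after rescaling for GBC. Whether the effects of GBC and Re on any sirtuin differ was not tested, as they come from separate tables and the pair has no replicates. The ratio of Sirt2 to Sirt7, free of scale, was 0.762 in DMSO and 0.479 in GBC, and in the Re table it was 0.989, 1.27 and 1.10 in DMSO and 0.762, 0.792 and 1.21 in Re.

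Set across the tables, which were normalised separately, Sirt1 stood furthest apart. The mean of the 3 DMSO libraries of the Re table was 12.05 times the value of the DMSO library of the pair. Over 9966 genes at 1 TPM or more in both, the median ratio was 2.45, with quartiles of 1.63 and 3.78, and 98.0% had a lower ratio than Sirt1. Sirt1 itself was just above this filter in the pair, at 1.04 TPM in DMSO. Genes under 1 TPM in that library, such as Myod1, were left out, so the 98.0% holds only among the genes kept. The other sirtuins had ratios of 2.89 for Sirt2, 2.16 for Sirt6, 2.13 for Sirt5, 1.99 for Sirt7, 1.38 for Sirt4 and 1.23 for Sirt3. Within a library, the ratio of Sirt1 to Sirt7 was 0.118 and 0.135 in the pair, and it ran from 0.612 to 0.855 over the 6 libraries with Re or its controls. In the pair Sirt1 was the lowest sirtuin, below Sirt5, while in the Re table it was the third. The tables also differ in the myoblast markers above, and the part of this in the level of Sirt1 was not tested.

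Genes beside the sirtuin loci were read from the RefSeq table to see whether neighbours showed like values. Psmd13, a proteasome subunit next to Sirt3, averaged 69.0 ± 14.9 TPM in the DMSO and 85.2 ± 7.03 TPM in the Re libraries (SD, n = 3), a difference of 0.32 with an adjusted p of 0.687 in limma. Ric8a, a chaperone of G protein subunits that overlaps the end of Sirt3, was at 30.1 ± 0.725 and 33.3 ± 2.43 TPM, a difference of 0.14, or 0.03 after rescaling, where Sirt3 was at 0.48 and 0.39. Bet1l, on the same side, differed by 0.15. For Sirt4, the neighbour Pla2g1b was listed at 0 in DMSO and at a mean of 0.17 TPM in Re, and the pseudogene Gm13836 at 0 in all 6 libraries; 3 noncoding genes that overlap Sirt4 (Gm42007, Gm24265 and Gm24407) were not analysed here. Beside Sirt7, Pcyt2 and Mafg differed by 0.27 and 0.11, and Mir6936, within Sirt7, was listed at 0. Herc4 and Dnajc12 beside Sirt1 differed by -0.03 and 0.11, Nfkbib beside Sirt2 by -0.05, Nol7 beside Sirt5 by 0.13 and Ankrd24 beside Sirt6 by 0.29. Rinl and BC025920 were under 1 TPM, and Gm19897 and Gm52047 were not analysed here. After rescaling the neighbour differences were lower, with Psmd13 at 0.20, Bet1l at 0.04, Pcyt2 at 0.16, Mafg at 0.00 and Ankrd24 at 0.20. Every Re value lay above every DMSO value in 0 of the 10 neighbours tested, against 13.7% of all genes as deposited. How the authors' counting treated strand is not given in the sources used here, so reads of overlapping genes may be shared.

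The genes whose profile over the 6 libraries of the Re table was most like that of a sirtuin were found by the root-mean-square distance between centred log2(TPM + 1) profiles after rescaling, over 10694 named genes. For Sirt4, whose own profile had a root-mean-square size of 0.34, the nearest were Uba7, the activating enzyme of the ISG15 modifier, at a distance of 0.07, and Calr3, a calreticulin, at 0.11. Uba7 averaged 1.17 ± 0.117 TPM in the DMSO and 2.59 ± 0.572 TPM in the Re libraries (SD, n = 3). For Sirt3, of size 0.21, they were Gas5, a host gene of small nucleolar RNAs, at 0.03, and Pex10, a peroxisome assembly factor, at 0.04. Gas5 was at 61.5 ± 9.04 and 84.5 ± 1.78 TPM. For Sirt1, of size 0.14, they were Sdf2l1, an endoplasmic reticulum protein, and Nqo1, a quinone reductase, each at 0.03. The nearest to Sirt2 were Prkar1a and Chn2, to Sirt6 Asap2 and Faim, and to Sirt7 Zfp740 and Ttpal, at 0.02 to 0.04. The points share their libraries and, with so many genes and 6 libraries, close profiles are found for any gene.

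Genes listed for synthesis and salvage of NAD+, the cosubstrate of sirtuins, had a median difference of 0.20 for Re, over 10 of 13 listed genes that averaged 1 TPM or more. Of these 10, 0 passed the test, with 0 at an unadjusted p under 0.05 in limma, which 6.23% of all genes reached. The list also holds the kinases Nadk and Nadk2, the carrier Slc25a51 and the transhydrogenase Nnt. After rescaling the median was 0.09, with 7 of 10 higher, against 49.8% of all genes. The 3 Re values exceeded every DMSO value in 0 of 10, as deposited and after rescaling, against 13.7% and 5.21% of all genes. They lay below in 0 of 10 on both scales, against 1.27% and 4.96% of all genes. Nampt, the rate-limiting enzyme of NAD+ salvage, averaged 14.8 ± 1.38 TPM in the DMSO and 17.2 ± 1.94 TPM in the Re libraries (SD, n = 3), a log2 difference of 0.20 (95% confidence interval -0.08 to 0.48). Slc25a51, which carries NAD+ into mitochondria, was at 25.8 ± 2.39 and 29.8 ± 3.07 TPM. Nmnat2 and Nmrk1, which make NAD+ and nicotinamide mononucleotide, differed by 0.22 and 0.37. After rescaling Nampt was at 0.09, Slc25a51 at 0.09, Nmnat2 at 0.12 and Nmrk1 at 0.29. In the GBC pair 8 of 8 measured members were higher as deposited, where 88.8% of all genes were, and 1 of 8 after rescaling. Slc25a51 and Nnt had the largest differences, at 0.39 and 0.34 as deposited and at 0.04 and -0.01 after rescaling, against an all-gene median of 0.32 as deposited.

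Other enzymes that consume NAD+ had a median difference of 0.11 for Re over 13 of 18 genes, equal to that of all genes, and 0.01 after rescaling. The list of 18 also holds Nnmt, included for nicotinamide methylation, which was under 1 TPM in the Re table. Of the 13, 0 passed the test. At an unadjusted p under 0.05 in limma, reached by 6.23% of all genes in either direction, 1 was higher. That gene was Parp3, an enzyme of DNA repair that transfers ADP-ribose. It averaged 14.8 ± 0.721 TPM in the DMSO and 18.5 ± 1.96 TPM in the Re libraries (SD, n = 3), 0.30 apart on the log2 scale. Tnks2, Parp12 and Parp2 differed by 0.30, 0.23 and 0.19, and after rescaling Parp3, Tnks2, Parp12 and Parp2 stood at 0.19, 0.18, 0.13 and 0.08. The 3 Re values exceeded every DMSO value in 4 of 13 as deposited (Parp3, Parp6, Parp12 and Tnks2) and in 1, Tnks2, after rescaling, against 13.7% and 5.21% of all genes. In the pair Tnks2 and Tnks, the tankyrases, were 0.61 and 0.52 higher in GBC as deposited and 0.23 and 0.18 after rescaling.

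The zinc-dependent deacetylases, which remove acetyl groups without NAD+, had a median of 0.09 over 9 of 11 genes and -0.02 after rescaling. For Re 0 passed the test and 3 were higher at an unadjusted p under 0.05 in limma, a level that 6.23% of all genes reached: Hdac5, Hdac6 and Hdac10. Hdac6, which shares tubulin as a substrate with Sirt2, averaged 12.5 ± 2.03 TPM in the DMSO and 15.7 ± 0.773 TPM in the Re libraries (SD, n = 3), a difference of 0.32. Hdac5 and Hdac10 differed by 0.31 and 0.32, and Hdac3 by 0.14. After rescaling Hdac6, Hdac5, Hdac10 and Hdac3 stood at 0.21, 0.20, 0.22 and 0.03. The 3 Re values exceeded every DMSO value in 4 of 9, these same genes, as deposited, and in 2, Hdac5 and Hdac10, after rescaling. Of all genes, 13.7% and 5.21% did so. They lay below in 1, Hdac8, as deposited, and in 2, Hdac1 and Hdac8, after rescaling, against 1.27% and 4.96% of all genes. In the pair Hdac7 and Hdac4, class IIa members, were 0.88 and 0.65 higher in GBC as deposited and 0.52 and 0.34 after rescaling.

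Partners and substrates of the nuclear and cytosolic sirtuins had a median of 0.08 over 18 of 20 genes and -0.04 after rescaling, and 0 passed the test. At an unadjusted p under 0.05 in limma, reached by 6.23% of all genes, 2 were higher, Kat5 and Ccar2. These were also the 2 of 18 whose Re values all lay above the DMSO values, on both scales, and Rps19bp1 was the 1 whose values all lay below, after rescaling. Of all genes, 13.7% lay above as deposited, and after rescaling 5.21% lay above and 4.96% below. Kat5, an acetyltransferase known as TIP60, averaged 22.9 ± 1.70 TPM in the DMSO and 29.9 ± 1.67 TPM in the Re libraries (SD, n = 3), a log2 difference of 0.37 (95% confidence interval 0.15 to 0.60), with an adjusted p of 0.687 in limma. Ccar2, which encodes the Sirt1 inhibitor DBC1, was at 18.7 ± 0.852 and 21.9 ± 0.822 TPM, or 0.22 apart. Rela and Foxo3 differed by 0.22 and 0.15. After rescaling Kat5, Ccar2, Rela and Foxo3 stood at 0.26, 0.11, 0.10 and 0.04. In the pair Ubtf, a factor of ribosomal RNA genes, and Trp53 were 0.89 and 0.83 higher in GBC as deposited and 0.51 and 0.45 after rescaling.

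Substrates of the mitochondrial sirtuins had a median of 0.11 for Re over 20 of 24 genes. After rescaling it was 0.00, with 9 of 20 higher, against 49.8% of all genes. None passed the test, and 0 had an unadjusted p under 0.05 in limma, which 6.23% of all genes reached. The 3 Re values exceeded every DMSO value in 6 of 20 as deposited and in 0 of 20 after rescaling, against 13.7% and 5.21% of all genes. Sod2, the superoxide dismutase of the matrix and a Sirt3 substrate, averaged 53.01 ± 4.98 TPM in the DMSO and 59.6 ± 2.91 TPM in the Re libraries (SD, n = 3), a difference of 0.17. Mccc2, a leucine breakdown enzyme bound by Sirt4, was at 7.13 ± 0.959 and 8.77 ± 0.427 TPM, a difference of 0.27. Ndufa9 and Slc25a4 differed by 0.24 and 0.19. After rescaling Sod2, Mccc2, Ndufa9 and Slc25a4 stood at 0.06, 0.17, 0.13 and 0.07. In the pair Sdha, a complex II subunit, was the only member of 19 measured that passed a difference of 1 as deposited. Of all genes that averaged 1 TPM or more, 4.72% passed it. Sdha had 8.16 TPM in its control and 19.8 TPM after GBC, which is 1.18 higher, or 0.82 after rescaling. Foxo3, which the lists hold for both nuclear and mitochondrial sirtuins, was 0.72 higher in GBC as deposited and 0.41 after rescaling.

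**Figure D4:**
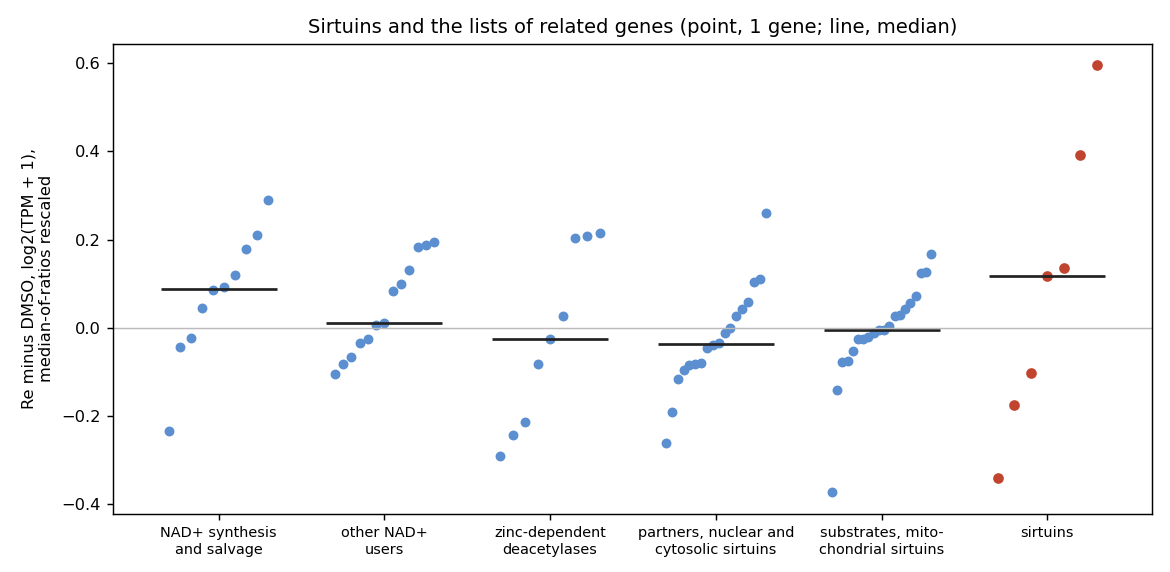
Re minus DMSO difference on the log2(TPM + 1) scale after median-of-ratios rescaling for each gene of the 5 related lists (blue) and for the sirtuins (red); black lines are medians. The sirtuin median is 0.12, and the list medians run from -0.04 for partners of nuclear and cytosolic sirtuins to 0.09 for NAD+ synthesis and salvage.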

How the data were processed

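RNA sequencing libraries of cells labelled C2C12 were made with a TruSeq RNA kit, per the labels' protocols. The deposited values are log2(TPM + 1) per Ensembl gene. STAR, RSEM, GRCh38 and GRCm39 appear in the submitters' processing notes, with no version or setting. Back-transformed TPM were used as levels. The Re and DMSO libraries were compared in R 4.3.3 with limma 3.58.1 (lmFit, eBayes with trend, two-sided) on log2(TPM + 1), which understates changes of low genes, over genes that averaged 1 TPM or more, with Benjamini-Hochberg adjustment over all of them at 0.05. The step was checked on simulated data. The pair, 1 library per group, had no test. Other steps used Python 3.11.15, numpy 2.4.6 and pandas 2.3.3, and figures matplotlib 3.10.9. Median-of-ratios factors came from genes above 0 in every library that averaged 1 TPM or more. RefSeq and GENCODE M21 are on GRCm38, so only names, neighbours and promoter windows were taken from them. Named genes are the sirtuins, their neighbours, the 2 nearest profiles, and from each of 5 lists the 4 with the lowest p in the Re comparison and 2 with the largest difference for GBC. Other list genes were named after their values were seen. For Nnt, listed on 2 rows, the row with the higher mean was used. Alternatives were other pseudocounts, filters, scalings, variance models, a replicate block and left-out libraries. The members, lists and tests were chosen with earlier results of these data known. The nearest profiles of Sirt5 are not reported here. Protein sequences were not used here.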

Additional observations from a re-analysis of the deposited data

How the results depend on the processing

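The differences of Sirt3 and Sirt4 for Re kept their sign under all 12 alternatives run (pseudocounts of 0.5 and 0.1, median-of-ratios and quantile scaling, mitochondrially encoded genes left out, equal sums, which was added after seeing the data, and each library left out in turn), as did those of Sirt1, Sirt5 and Sirt7. Sirt2 kept its sign in 11 of 12 and Sirt6 in 4 of 12. The count of sirtuins whose Re values all lay above the DMSO values was 2, or 3 without DMSO replicate 1 or Re replicate 3 (34.0% and 18.7% of all genes), and the family's median was 0.08 to 0.27. Genes called by limma numbered 0 under every scaling, filter and variance model run, and 0 to 7 with 1 library left out: 4 without DMSO replicate 1 (Lars2, Snora21, Snora64 and Gm4294), 6 and 0 when DMSO replicates 2 and 3 were dropped, 3 without Re replicate 1 (H2bc24, H2bc23 and Gm23639), 1 without Re replicate 2 (mt-Co2) and 7 without Re replicate 3. No sirtuin was among them, and the cause was not tested. With a replicate block the count was 0, with 810 genes at an unadjusted p under 0.05. Same-numbered libraries had correlations of deviations of 0.16, 0.08 and 0.02, so the numbers were not taken as pairs. In the GBC pair 346 genes passed a difference of 1 at a mean of at least 5 TPM, 123 after median-of-ratios scaling, 128 after quantile normalization and 218 at a mean of at least 10 TPM, where fewer genes were counted. Of those calls 95.4% were higher in GBC as deposited, 77.2% after median-of-ratios scaling and 79.7% after quantile normalization. The family's median was -0.22 and -0.32 under those scalings, and Sirt3 was at -0.10 after quantile normalization. Unknown depth limits Sirt1, Sirt3 and Sirt5, which are low in the pair.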
